A study of Mus musculus with 15 samples.

Results

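The MHC class II presentation genes were examined in the cecum of mice whose gut microbiome had been depleted with antibiotics. They were defined as 7 genes by symbol, namely H2-Aa, H2-Ab1, H2-Eb1, H2-DMa, H2-DMb1, Cd74 and Ciita, out of 45808 rows of the expression table, and each had a row. The rule used no measured value, but earlier results of these data were known when the genes were chosen. All mice were wild-type C57BL/6 of 20 weeks. The AIMD group (antibiotic-induced microbiome depletion, n = 7) received ampicillin, vancomycin, neomycin, metronidazole and amphotericin B by oral gavage for 30 days, and the vehicle group (n = 8) received water in the same way. Each value is the RNA of 1 whole cecum, emptied of its contents. It is given in fragments per kilobase of transcript, as scaled between libraries in the deposited values (FPKM). An antifungal was part of the mixture, and which mice shared a cage was not given in the sources used here.

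MHC class II molecules are pairs of an alpha and a beta chain that display peptides from endosomes to CD4 T cells. They are made mainly by B cells, dendritic cells and macrophages, and intestinal epithelium can make them as well. The invariant chain, encoded by Cd74, fills the groove of a new molecule on its way to the endosome, where proteases cut it down. The DM heterodimer of H2-DMa and H2-DMb1 then exchanges the remaining fragment for a peptide. Ciita is the coactivator that drives transcription of the whole set. It has no DNA-binding domain of its own and sits on a complex of RFX, NF-Y and CREB proteins bound to the X and Y boxes of these promoters.

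Of the members, 5 lie in the class II region of chromosome 17 of GRCm38, with left ends within 214 kb of that of H2-Oa. H2-DMa occupies chr17:34119541-34139101 on the plus strand, and several gene models lie within it, Brd2 on the minus strand among them. H2-DMb1 follows at chr17:34153072-34160230 on the plus strand. H2-Ab1, the beta chain of I-A, is at chr17:34257689-34269419 on the plus strand, and its partner H2-Aa is at chr17:34282744-34287823 on the minus strand. H2-Eb1, the beta chain of I-E, is at chr17:34305867-34316674 on the plus strand, overlapped by the minus-strand model Gm20513. Ciita is at chr16:10480059-10528418 on the plus strand. Whether the authors counted reads by strand was not stated in the sources used here.

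The X and Y boxes that Ciita acts through could be read in the promoters of several members, and these stretches are shown because 3 of the members hold both. RefSeq promoters (GRCm38.p6, 250 bases before to 50 after each start) were found for H2-Aa, H2-Eb1, H2-DMb1 and H2-DMa. The letters searched on both strands were TNGNAACT for the X box and TGATTGG for the Y box, and they were chosen after these promoters had been read. Capitals mark both matches, each sequence runs 5′ to 3′ on the strand of its gene, and the regions are chr17:34153085-34153144, chr17:34287857-34287916 and chr17:34305764-34305822 in that order.
H2-DMb1: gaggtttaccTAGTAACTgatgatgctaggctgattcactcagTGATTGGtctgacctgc
H2-Aa: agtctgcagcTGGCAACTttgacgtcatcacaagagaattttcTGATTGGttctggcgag
H2-Eb1: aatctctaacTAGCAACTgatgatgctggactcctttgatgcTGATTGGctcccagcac
In all 3 the Y letters stood nearer to the start, with 24 or 25 bases between the matches. Among 32851 promoters of this length, 12.3% held the X letters, 7.82% the Y letters and 0.965% both. Neither motif was found in the 2 promoter entries of H2-DMa, and the entries of H2-DMb2, H2-Ob, H2-Oa and H2-Eb2 held the Y letters alone. The values of the 3 genes with both are given below, and the part of these boxes in them was not tested.

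Reads recovered from the FPKM steps ranged from 8679684 to 18108594 per mouse in the AIMD group and from 4372429 to 14405960 in the vehicle group, so that depth moved with treatment. The deepest mice were AIMD 3 and AIMD 1, and these also had the lowest summed FPKM of 9 B cell markers (14.1 and 7.74). Vehicle 8 was the least deep, with the highest B cell sum (88.5) and the highest sum of smooth muscle and fibroblast markers (2112, against 392 to 1022 in the other vehicle mice). The large intestinal epithelial gene Car1 averaged 26472 FPKM in the AIMD and 22755 FPKM in the vehicle group, so that the defining marker of the labelled tissue was abundant in both. Levels of the circadian clock genes split both groups into the same 2 clusters, with AIMD 1 to 3 and vehicle 1 to 4 in cluster 1 and AIMD 4 to 7 and vehicle 5 to 8 in cluster 2. Time of sacrifice was a factor in the study's own tests and is given by no label, so the clusters were used as its stand-in in alternative fits and subsets. Values were tested with limma on log2(FPKM + 0.5) over 11971 genes with treatment as the only term, and a gene was called at a Benjamini-Hochberg adjusted p below 0.05.

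Of the 6 members that passed the filter on low values, 2 were lower in AIMD mice, H2-Ab1 and H2-DMb1, and none was higher. By the same test 36.0% of all tested genes were called, 19.4% as higher and 16.6% as lower in AIMD. No member had groups that did not overlap, against 8.56% of all tested genes. The median log2 fold change of the 6 members was -0.39, and that of all tested genes was 0.0066. A share of 2 in 6 is close to the background of 36.0%, so that the members were not called more often than genes at large. In whole ceca, fewer cells that express a gene and less RNA per cell cannot be told apart.

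**Figure D1:**
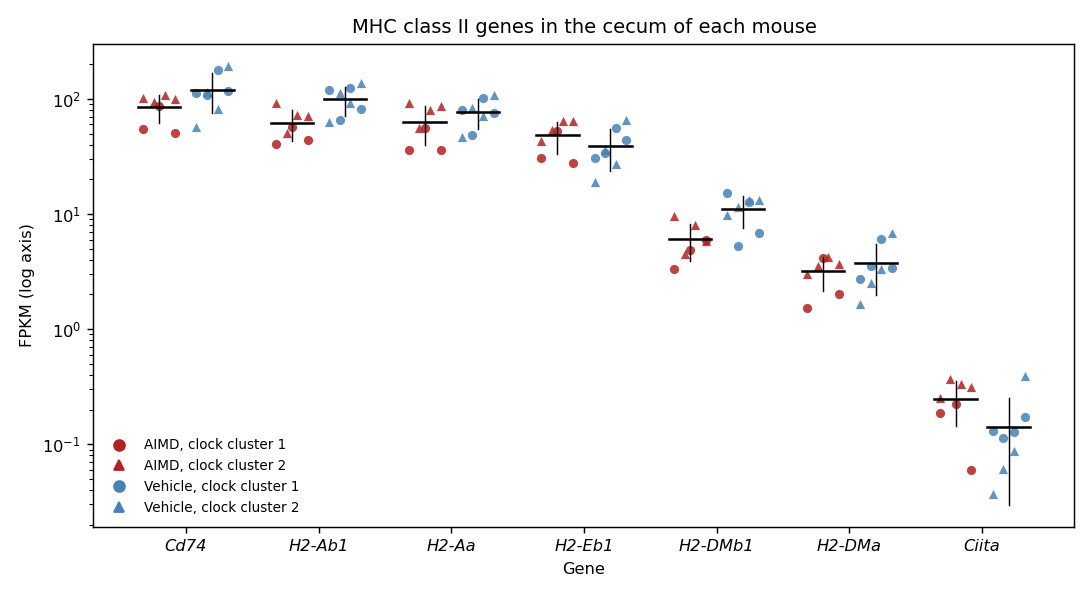
FPKM (log axis) of the 7 members in each mouse, AIMD in red and vehicle in blue, with circles for clock cluster 1 and triangles for clock cluster 2. Horizontal bars are means and vertical bars are 1 SD (n = 7 and 8). All AIMD points of H2-Ab1 and H2-DMb1 lie below the vehicle median, 4 and 3 of them below every vehicle point. For H2-Eb1 and Ciita, 2 and 1 of the 7 AIMD points lie below the vehicle median.

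Among the chains of the presenting molecules, H2-Ab1 fell. Its lowest, median and highest FPKM were 40.3, 57.2 and 92.9 in AIMD mice and 62.4, 101.9 and 136 in vehicle mice. All 7 AIMD mice were below the vehicle median, 4 of them were below every vehicle mouse, and 4 of the 8 vehicle mice were above every AIMD mouse. The means were 61.4 ± 18.7 (SD, n = 7) and 99.0 ± 27.6 (SD, n = 8), which is 38.0% lower in AIMD. The log2 fold change was -0.69 (SE 0.21, 95% interval -1.12 to -0.25), with a limma adjusted p of 0.0155. An exact permutation test of this gene alone over the 15 mice gave a two-sided p of 0.0112.

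H2-Aa, the alpha chain that pairs with H2-Ab1, was not called. Its lowest, median and highest FPKM were 35.6, 55.9 and 92.9 in AIMD and 46.8, 77.9 and 108.5 in vehicle mice, and the groups overlapped over most of their range. The log2 fold change was -0.32 (SE 0.24, 95% interval -0.82 to 0.18, limma adjusted p 0.308), so that a fall as large as that of H2-Ab1 lies inside its interval.

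H2-Eb1 had the only positive estimate among the tested members. Its lowest, median and highest FPKM were 27.9, 52.9 and 64.7 in AIMD and 18.8, 34.8 and 65.6 in vehicle mice. Only 2 of the 7 AIMD mice were below the vehicle median, and these were AIMD 1 and AIMD 3, the deepest libraries. The means of 48.1 ± 14.9 and 38.9 ± 15.5 FPKM gave a log2 fold change of 0.33 (SE 0.25, 95% interval -0.19 to 0.86, limma adjusted p 0.310). C57BL/6 mice lack a working I-E alpha chain, and H2-Ea-ps, the row of that locus, was listed at 0 in every mouse of both groups. H2-Eb1 was thus measured at 18.8 FPKM or more in tissue where no read was assigned to the gene of its usual partner.

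Cd74, the invariant chain, had the highest mean FPKM of the members in both groups, at 85.03 ± 23.3 in AIMD and 120 ± 45.6 in vehicle mice. Its lowest, median and highest FPKM were 50.4, 93.8 and 108 in AIMD and 57.0, 114 and 193 in vehicle mice. All 7 AIMD mice lay below the vehicle median and 6 of the 8 vehicle mice lay above every AIMD mouse, but vehicle 5, at 57.0, reached down to the lowest AIMD values. The log2 fold change was -0.46 (SE 0.24, 95% interval -0.97 to 0.05, limma adjusted p 0.147). Without vehicle 5 it was -0.60 with a limma adjusted p of 0.0417, which makes 3 members called as lower, so that 1 mouse decides this call.

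Of the DM chains, H2-DMb1 fell and H2-DMa was not called. The lowest, median and highest FPKM of H2-DMb1 were 3.35, 5.85 and 9.54 in AIMD and 5.28, 12.04 and 15.2 in vehicle mice. All 7 AIMD mice were below the vehicle median and 6 of the 8 vehicle mice were above every AIMD mouse. Its mean was 45.2% lower in AIMD, with a log2 fold change of -0.81 (SE 0.23, 95% interval -1.30 to -0.33, limma adjusted p 0.0111). Reads of this gene can be split between near-identical copies, since 22.7% of the 50-base windows of its transcripts also occur in another gene, chiefly H2-DMb2. H2-DMb2 itself, the second DM beta gene, fell from 11.2 ± 4.19 to 5.45 ± 2.85 FPKM, a log2 fold change of -1.05 (SE 0.29, limma adjusted p 0.0103). The part of the shared reads in either fall was not tested. H2-DMa had means of 3.17 ± 1.04 in AIMD and 3.76 ± 1.78 FPKM in vehicle mice, with a log2 fold change of -0.17 (SE 0.25, limma adjusted p 0.623).

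Ciita, the coactivator, was near the limit of detection. It rested on 6 to 26 reads per mouse in the AIMD and 1 to 10 reads in the vehicle group, and failed the filter on low values, so that limma did not test it. Its lowest, median and highest FPKM were 0.0602, 0.251 and 0.369 in AIMD and 0.0369, 0.121 and 0.391 in vehicle mice. Only 1 of the 7 AIMD mice was below the vehicle median. The mean log2(FPKM + 0.5) was 0.23 higher in AIMD, and the two-sided exact permutation p was 0.0693. The vehicle group's highest value came from vehicle 8, its least deep mouse, with 9 reads. Without that mouse the difference was 0.30 (exact permutation p = 0.0111), and without AIMD 3 it was 0.29 (exact permutation p = 0.0186). By clock cluster the difference was 0.0377 in cluster 1 and 0.37 in cluster 2 (exact permutation p = 0.714 and 0.143). Among the 5 AIMD and 5 vehicle mice of 7000000 to 12000000 reads it was 0.37, with an exact permutation p of 0.00794, the smallest that 5 against 5 mice can give. The side of 0.05 on which Ciita fell thus changed with the mice included.

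**Figure D2:**
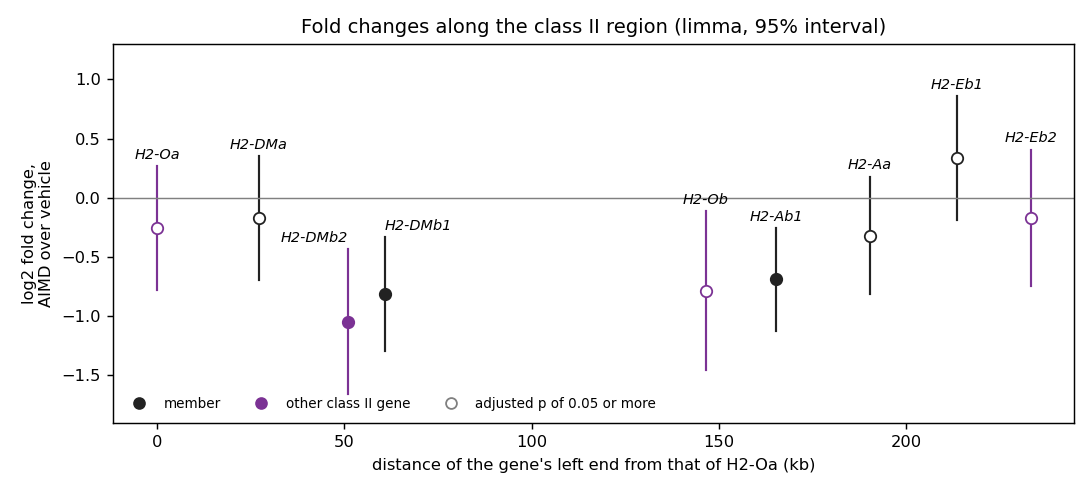
Log2 fold change of (FPKM + 0.5), AIMD over vehicle, with its 95% interval from limma, against the distance of each gene's left end from that of H2-Oa in kb. Black marks are members, purple marks are other class II genes, and filled marks have an adjusted p below 0.05. The neighbours H2-DMb2 and H2-DMb1 are called, as is H2-Ab1, the last 3 genes of the region are not, and H2-Eb1 has the only positive estimate.

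The other class II loci of the region were measured beside the members. DO, the heterodimer of H2-Oa and H2-Ob, is an inhibitor of DM that is found chiefly in B cells. H2-Ob averaged 3.46 ± 2.13 FPKM in AIMD and 5.86 ± 2.45 FPKM in vehicle mice, with a log2 fold change of -0.78 (SE 0.32) and a limma adjusted p of 0.0633. H2-Oa had a log2 fold change of -0.25 (limma adjusted p 0.446) and H2-Eb2 one of -0.17 (limma adjusted p 0.658). Only H2-DMb2 passed the test among the 4 of these loci that were tested. AIMD 1 and AIMD 3 had the lowest values of the AIMD group for all 4 of these loci. With log2 reads as a covariate H2-DMb2 was at -0.51 (limma adjusted p 0.188), and in clock cluster 2 at -0.54 (limma adjusted p 0.248). H2-Ob was called in clock cluster 1, at -1.48 (limma adjusted p 0.0159), and over all mice with clock cluster as a term (-0.83, limma adjusted p 0.0308), with the clock axis as a covariate (limma adjusted p 0.0402) and with limma voom on the recovered reads (-0.97, limma adjusted p 0.0442). It was also called when AIMD 7 (-0.98), vehicle 2 (-0.90) or vehicle 5 (-0.87) was left out. H2-Eb2 was called in clock cluster 1 alone, at -0.83 (limma adjusted p 0.0207).

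As measured on the per-length FPKM scale within each mouse, the order of the members by level was alike in both groups except for H2-Aa and H2-Ab1. In vehicle mice it ran Cd74, H2-Ab1, H2-Aa, H2-Eb1, H2-DMb1, H2-DMa and Ciita. In AIMD mice H2-Aa and H2-Ab1 were level, with H2-Aa the higher in 4 of 7 mice (exact sign-flip permutation test, adjusted p 0.984 over 12 neighbour pairs). In vehicle mice H2-Ab1 exceeded H2-Aa in 8 of 8 mice (exact permutation, adjusted p 0.0188), while Cd74 and H2-Ab1 did not differ beyond their spread, with Cd74 the higher in 5 of 8 mice (exact permutation, adjusted p 0.128). All other neighbours in either order differed at an adjusted p of 0.0375 or less. H2-Eb1 was 8.07-fold above H2-DMb1 by geometric mean in AIMD mice and 3.49-fold above it in vehicle mice.

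Ratios between members within a mouse, which no scaling between mice can move, kept the groups apart in 1 case, which no single member did. The comparison of ratios was chosen after the levels had been seen. All 15 pairs of the 6 tested members were compared by exact permutation over the mice, and 6 pairs passed at an adjusted p below 0.05. The share of pairs of other genes that would pass or not overlap was not measured. Among single tested genes 36.0% were called by limma and 8.56% had groups that did not overlap. Whether such ratios are particular to the class II genes was therefore not tested. The FPKM of H2-Eb1 over that of Cd74 had a lowest, median and highest value of 0.423, 0.573 and 0.650 in AIMD mice and 0.272, 0.321 and 0.374 in vehicle mice. Every AIMD mouse was above every vehicle mouse. On the log2 scale the ratio averaged -0.83 ± 0.20 (SD, n = 7) in AIMD and -1.64 ± 0.13 (SD, n = 8) in vehicle mice, a difference of 0.80 or 1.75-fold. The exact permutation p was 0.000155, the smallest that 7 against 8 mice can give, and the adjusted p over the 15 pairs was 0.00233.

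**Figure D3:**
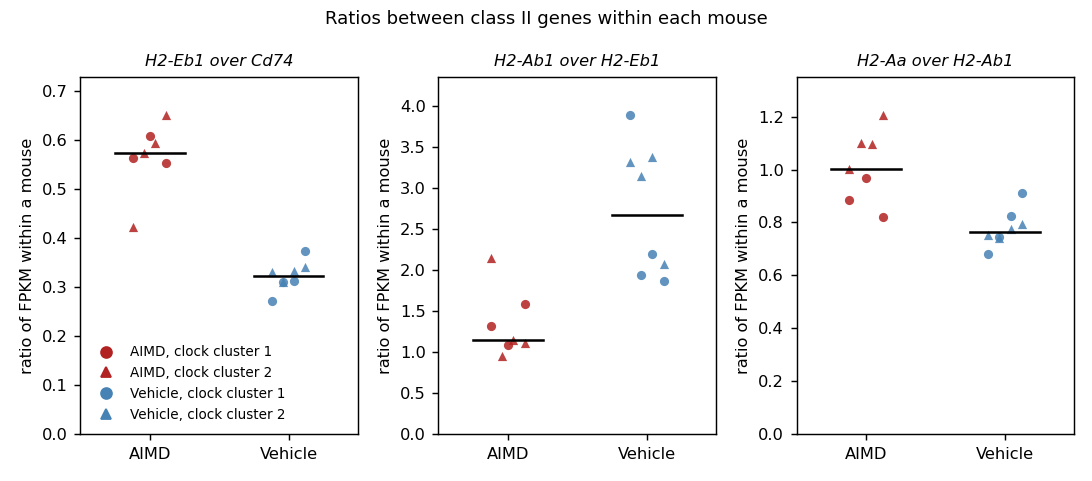
Ratios of FPKM within each mouse for H2-Eb1 over Cd74, H2-Ab1 over H2-Eb1 and H2-Aa over H2-Ab1, by group. Each point is a mouse, circles and triangles are clock clusters 1 and 2, and bars are medians. H2-Eb1 over Cd74 does not overlap between the groups, with medians of 0.573 and 0.321.

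The I-A and I-E beta chains moved apart in the same way. H2-Ab1 over H2-Eb1 ran from 0.945 to 2.14 with a median of 1.14 in AIMD mice, and from 1.87 to 3.89 with a median of 2.67 in vehicle mice. Only AIMD 4 reached the vehicle range. The log2 difference was -1.03, and the exact permutation p of 0.00109 became 0.00699 after adjustment. H2-Aa over H2-Ab1, the ratio of the I-A partners, had a median of 1.00 in AIMD and 0.764 in vehicle mice, a log2 difference of 0.37 with an adjusted exact permutation p of 0.00699. The other 3 pairs that passed all held H2-Eb1, with log2 differences of 0.53 over H2-DMa (adjusted exact permutation p 0.00699), -0.66 for H2-Aa over it and 1.21 over H2-DMb1 (adjusted exact permutation p 0.0148 for both). Thus 5 of the 6 pairs that passed were pairs with H2-Eb1, and these are all 5 of its pairs. The pairs share genes and are not independent of each other.

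Since the ratio of H2-Eb1 to Cd74 did not overlap between the groups, it could not overlap in any subset of the mice either. The p-values of the subsets were thus fixed beforehand and add no support, and only the size of the difference could vary. Its log2 difference was 0.86 in clock cluster 1 and 0.75 in clock cluster 2, each with an exact permutation p of 0.0286, the smallest that these numbers of mice allow. Among the mice of 7000000 to 12000000 reads, 5 in each group, it was 0.82 (exact permutation p = 0.00794). Leaving out each mouse in turn gave 0.77 to 0.87.

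With clock cluster as a term in the fit over all mice, the same 2 members were called, H2-Ab1 at -0.71 (limma adjusted p 0.00881) and H2-DMb1 at -0.84 (limma adjusted p 0.00463), while Cd74 was at -0.47 (limma adjusted p 0.131), H2-Aa at -0.35 (limma adjusted p 0.212), H2-Eb1 at 0.32 (limma adjusted p 0.315) and H2-DMa at -0.18 (limma adjusted p 0.595). The calls of single members were not even across the subsets. In clock cluster 1, with 3 AIMD and 4 vehicle mice, H2-Ab1 had a log2 fold change of -0.996 (limma adjusted p 0.0207) and Cd74 one of -1.02 (limma adjusted p 0.0201). In clock cluster 2, with 4 and 4 mice, these were -0.45 (limma adjusted p 0.233) and 0.0070 (limma adjusted p 0.992). The Cd74 means were 63.9 and 129 FPKM in AIMD and vehicle mice of cluster 1, and 100.9 and 112 FPKM in those of cluster 2. H2-DMb1 was close in both, at -0.91 (limma adjusted p 0.0883) and -0.77 (limma adjusted p 0.0339). H2-Eb1 was at -0.16 in cluster 1 and 0.75 in cluster 2 (limma adjusted p 0.718 and 0.122). A limma interaction of treatment with cluster, chosen after these values were seen, was called for 0 of 11971 genes, with 534 at an unadjusted p below 0.05. The unadjusted interaction p was 0.0319 for Cd74 and 0.0373 for H2-Aa, and the adjusted p was 0.993 for both, so that a difference between the clusters was not established for any member.

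Depth bears on both calls. With log2 reads as a covariate the log2 fold change of H2-Ab1 was -0.33 (limma adjusted p 0.247) and that of H2-DMb1 was -0.41 (limma adjusted p 0.190), and no member was called. Among the 5 AIMD and 5 vehicle mice of 7000000 to 12000000 reads, both calls held, at -0.62 (limma adjusted p 0.0214) and -0.82 (limma adjusted p 0.0192), and H2-Eb1 was called as higher, at 0.55 (limma adjusted p 0.0470). This window leaves out AIMD 1 and AIMD 3 and vehicle 2, 5 and 8, and it was chosen after the data had been seen.

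Of the cells that carry class II, B cells had lower markers in AIMD. Among 9 B cell markers, all tested, 3 fell and none rose, with a median log2 fold change of -0.72, and this share of calls is close to the 36.0% among all tested genes. Among them were Cd79b, a signalling chain of the B cell receptor, at -1.39 (limma adjusted p 0.00384), and Blk, a B cell kinase, at -0.84 (limma adjusted p 0.0172). Their summed FPKM ran from 7.74 to 61.1 in AIMD and from 33.4 to 88.5 in vehicle mice, and the defining marker Ms4a1 was present in both groups at means of 2.85 and 4.13 FPKM. With log2 reads as a covariate the limma adjusted p of Cd79b and Blk rose to 0.0751 and 0.302, and in clock cluster 2 alone to 0.122 and 0.417. The part of B cells in the fall of H2-Ab1 and H2-DMb1 was not tested.

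**Figure D4:**
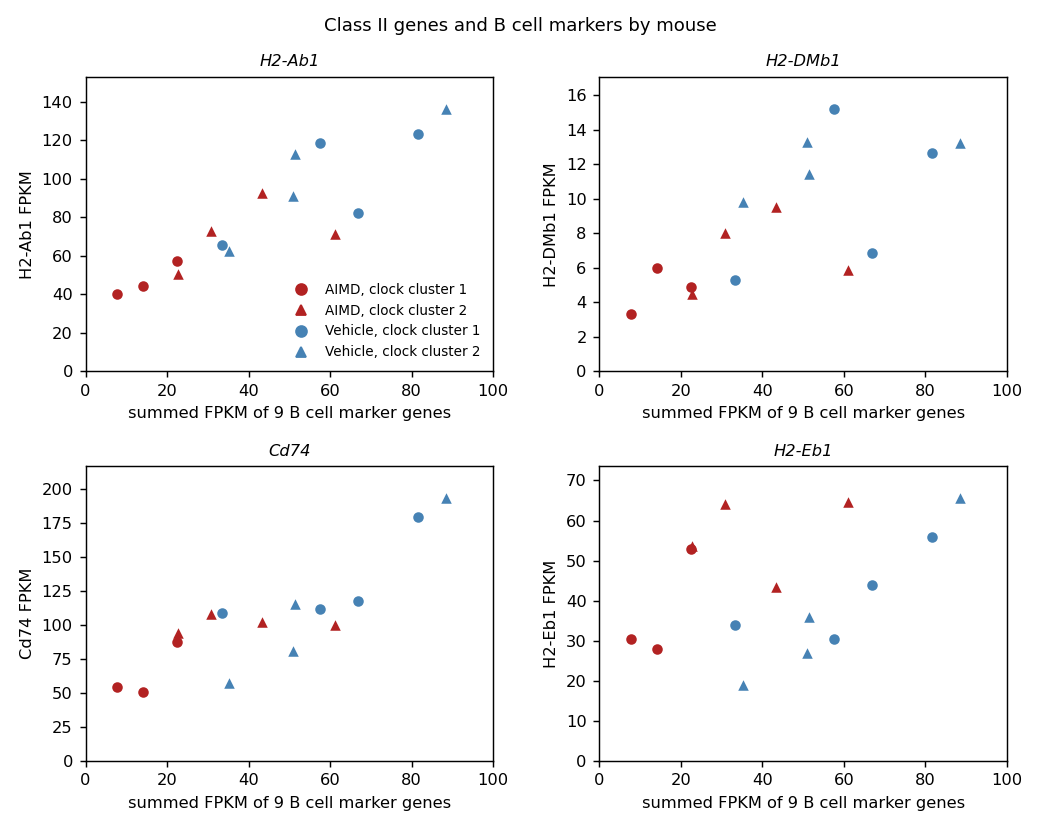
FPKM of H2-Ab1, H2-DMb1, Cd74 and H2-Eb1 in each mouse against the summed FPKM of 9 B cell markers, with AIMD in red, vehicle in blue, circles for clock cluster 1 and triangles for cluster 2. H2-Ab1 and Cd74 are higher in mice with higher B cell sums, from 7.74 in AIMD 1 to 88.5 in vehicle 8, and 5 AIMD mice have lower B cell sums than any vehicle mouse.

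Some macrophage markers went the other way. Of 8 tested out of 10, 3 rose and none fell, a share close to the 36.0% called among all tested genes. These were Csf1r (0.78, limma adjusted p 0.00640), Cd68 (0.48, limma adjusted p 0.0145) and C1qa (0.64, limma adjusted p 0.0141). C1qc was at -0.14 (limma adjusted p 0.683). Of the untested markers, Fcgr1 had a higher and Cd163 a lower mean in AIMD. In clock cluster 1 alone none of these 3 calls held (limma adjusted p 0.0625, 0.171 and 0.347). In cluster 2 alone those of Csf1r and Cd68 were lost (limma adjusted p 0.0636 and 0.0742). The summed FPKM was 33.2 to 56.7 in AIMD and 27.7 to 52.2 in vehicle mice. Dendritic cell markers were scarce. Only 3 of 9 passed the filter, and the sums were 2.66 to 5.71 in AIMD and 2.46 to 6.98 in vehicle mice. Clec10a was called as lower, while Itgax (0.37, limma adjusted p 0.133) and Ccr7 (0.048, limma adjusted p 0.828) were not called. The list's median log2 fold change was 0.048. Of its untested markers, Cd209a and Clec9a had higher and Flt3, Zbtb46, Xcr1 and Batf3 lower means in AIMD. Among 6 tested T cell markers Lck alone was called, as lower. The other 5 had positive estimates, and the median log2 fold change of the T cell list was 0.16. Among 2 tested markers of group 3 innate lymphoid cells none was called, with Il17a and Il22 below 0.1 FPKM on average in both groups. Of 5 markers of all leukocytes Coro1a alone was called, as lower, with sums of 19.2 to 84.9 in AIMD and 39.3 to 90.9 in vehicle mice. Of 8 epithelial markers 3 rose and 1 fell, and of 6 large intestinal epithelial markers 2 fell. Of 8 smooth muscle and fibroblast markers 1 rose and 1 fell, and of 13 tested clock genes 1 rose and 1 fell. Among all tested genes 19.4% rose and 16.6% fell. The call of Clec10a was lost without AIMD 1, 4, 5 or 7 or vehicle 1, 5, 7 or 8 (limma adjusted p up to 0.0845), and that of Coro1a without AIMD 1, 2, 3 or 5 or vehicle 1, 3 or 8 (limma adjusted p up to 0.0782). With log2 reads as a covariate their limma adjusted p were 0.348 and 0.491, with no filter 0.0697 and 0.0762, with the replicate number as a block 0.0929 and 0.0869, and among the mice of 7000000 to 12000000 reads 0.188 and 0.175. The part of any of these cells in the members' values was not tested.

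In the pathway that leads to Ciita, signalling genes were called in both directions. Interferon gamma acts through its receptor and the kinases Jak1 and Jak2 on the Ciita promoter, where Usf1 also binds, and Socs1 restrains the kinases. Of 10 tested genes of this list, 3 rose, among them Jak2 (log2 fold change 0.81, limma adjusted p 0.00227) and Jak1 (0.64, limma adjusted p 0.00115), and 3 fell, namely Usf1 (-1.20, limma adjusted p 4.57e-05), Socs1 (-0.62, limma adjusted p 0.00742) and the receptor chain Ifngr2 (-0.49, limma adjusted p 0.0235). The groups did not overlap for Jak1, which ran from 9.35 to 14.4 FPKM in AIMD and from 5.33 to 8.86 FPKM in vehicle mice, nor for Usf1, which ran from 6.79 to 11.1 FPKM and from 13.1 to 29.8 FPKM. The cytokine gene Ifng had at most 2 reads in any mouse and was not tested. The call of Ifngr2 was lost without AIMD 5 or AIMD 6 (limma adjusted p 0.0535 and 0.0564), and those of Ifngr2 and Socs1 were lost with log2 reads as a covariate (limma adjusted p 0.0974 and 0.0516). In clock cluster 1 alone Jak1, Socs1 and Ifngr2 were not called (limma adjusted p 0.102, 0.149 and 0.255), nor was Ifngr2 in cluster 2 alone (limma adjusted p 0.0958). The list's median log2 fold change was 0.13. Among all tested genes 19.4% rose and 16.6% fell, and 8.56% had groups that did not overlap.

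The complex on the class II promoters was called once. Of its 7 genes, all tested, Rfx5 fell from 2.93 ± 0.86 to 1.74 ± 0.47 FPKM, a log2 fold change of -0.61 with a limma adjusted p of 0.00803, and the other 6, which encode Rfxap, Rfxank, the 3 NF-Y subunits and Creb1, were not called. Rfx5 is the DNA-binding subunit of the RFX complex. It had 6 of 7 AIMD mice below every vehicle mouse, and with log2 reads as a covariate its fold change was -0.47 (limma adjusted p 0.0829), and in clock cluster 2 it was -0.60 (limma adjusted p 0.0856). The list's median was 0.04, and 36.0% of all tested genes were called.

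**Figure D5:**
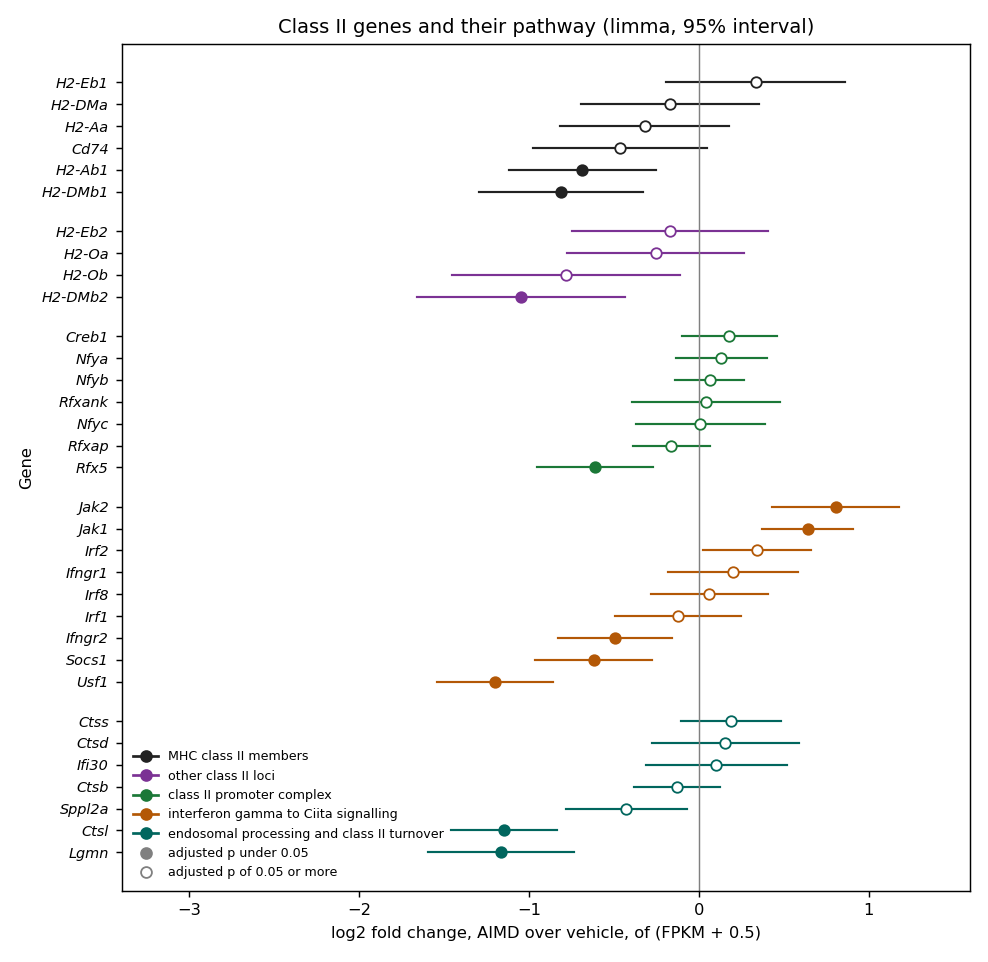
Log2 fold change of (FPKM + 0.5), AIMD over vehicle, with 95% intervals from limma for the tested members, the other class II loci, the class II promoter complex, 9 genes of the path from interferon gamma to Ciita and the endosomal genes. Filled marks have an adjusted p below 0.05. Usf1, Lgmn, Ctsl and H2-DMb2 lie lowest, at -1.20 to -1.05, and Jak2 lies highest at 0.81.

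Downstream, among the endosomal genes that cut the invariant chain and its cargo, 2 of 7 tested fell and none rose. Among all tested genes 16.6% fell, 19.4% rose and 8.56% had groups that did not overlap. Ctsl, the protease cathepsin L, ran from 71.0 to 91.5 FPKM in AIMD and from 123 to 256 FPKM in vehicle mice, with no overlap, and its log2 fold change was -1.15 (SE 0.15, limma adjusted p 3.07e-05). Lgmn, an asparagine-specific endopeptidase, averaged 26.1 ± 6.76 FPKM in AIMD and 60.7 ± 21.6 FPKM in vehicle mice, with a log2 fold change of -1.16 (SE 0.20, limma adjusted p 0.000411). Cathepsin S, the main protease of the invariant chain in B cells and dendritic cells, was not called. The list's median was -0.13, and both called genes are also active in lysosomes at large. Of 4 tested costimulatory genes none was called, with a median of 0.11.

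Class I presentation, which shows cytosolic peptides to CD8 T cells, was measured for comparison. Of 9 tested genes 6 fell and none rose, with a median log2 fold change of -0.63. Among all tested genes 16.6% fell and 19.4% rose. The strongest falls were those of the immunoproteasome subunits Psmb10 (-1.34, limma adjusted p 1.51e-05) and Psmb9 (-1.17, limma adjusted p 8.83e-05). The peptide transporter Tap1 (-0.84, limma adjusted p 0.00166), H2-K1 (-0.72, limma adjusted p 0.00273), Psmb8 (-0.63, limma adjusted p 0.0149) and H2-D1 (-0.39, limma adjusted p 0.0262) were the other 4. H2-D1 was not called without AIMD 6 or AIMD 7 (limma adjusted p 0.0564 and 0.0617), after quantile normalization (0.0716) or with the replicate number as a block (0.0852). With log2 reads as a covariate H2-D1 and Psmb8 were not called (limma adjusted p 0.126 and 0.216), nor were they among the mice of 7000000 to 12000000 reads (limma adjusted p 0.0936 and 0.0611). In clock cluster 1 alone the calls of H2-K1, Psmb8 and H2-D1 were lost (limma adjusted p 0.0646, 0.116 and 0.287). In cluster 2 alone those of Tap1 and H2-D1 were lost (limma adjusted p 0.0750 and 0.120). Tap1, Psmb8 and Psmb9 belong to the same stretch of chromosome 17 as the class II genes. No difference between the class I and class II lists was tested.

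Once the group means were removed, the members rose and fell together from mouse to mouse. The Pearson correlation of each member with the mean of the other tested members over the 15 mice was 0.93 for H2-Aa, 0.90 for Cd74, 0.89 for H2-Ab1, 0.82 for H2-Eb1, 0.80 for H2-DMa and 0.47 for H2-DMb1. The tested genes outside the members most like their mean were Map4k1 (0.955), H2-DMb2 (0.930), Fcer2a (0.929), Limd2 (0.928), Arhgdib (0.925), Rac2 (0.923), H2-Q6 (0.909), Klhl6 (0.906), Fgr (0.905) and Clu (0.902). These are descriptions over 15 mice that share the tissue's cell mix, the depth and the clock cluster.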

How the data were processed

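Poly-A selected, stranded libraries of 15 ceca were sequenced with 50-base single reads. The authors mapped them to GRCm38 with STAR, counted with featureCounts and GENCODE, and deposited FPKM by gene symbol for each mouse. By exon length the FPKM were whole multiples of 1 read for 16637 of 24279 genes above 0 (tolerance 0.05 reads or the rounding of the file). For 7630 others the step of 1 read was itself searched for so that the values came out whole, so wholeness is no check of these. The remaining 12 were rounded. The reads per mouse are sums over these genes. The members and all lists were chosen with earlier results of these data known. The filter kept a gene that reached 0.5 FPKM in 7 or more mice. Then limma 3.58.1 (trend, R 4.3.3) was run on log2(FPKM + 0.5) after median-of-ratios size factors. These were 1.01 in every mouse, so the deposited FPKM were already level between mice by that measure. They were not in proportion to the total of recovered reads. The log2(FPKM + 0.5) scale understates the change of low genes. Exact permutation tests were two-sided. The genes named are the members, the pathway lists, the markers and the 10 genes most like the members, leaving out predicted genes. A few listed genes enter the counts and are not reported here by name. The list of endosomal genes has 11 symbols, of which 7 had a row. Positions and shared 50-base windows are from GENCODE M21. Mice are numbered as labelled, and same-numbered mice are different animals. The limma step was tested on simulated data. Other steps used Python 3.11.15.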

Additional observations from a re-analysis of the deposited data

Results flagged for a closer look

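In 8 of 96 groups of values over the members, the other class II loci and the pathway genes, 1 mouse stood apart from its group by Dixon's criterion, where chance marks about 1 in 20 groups. Ciita was highest in vehicle 8, at 0.391 FPKM. AIMD 4 was the highest of its group for Ctsb (172 FPKM), Ifngr1 (148 FPKM), B2m (2094 FPKM), H2-K1 (612 FPKM) and Tap1 (7.48 FPKM). It also had the highest H2-Aa, H2-Ab1 and H2-DMb1 of the AIMD group. Cd86 was highest in vehicle 7 (2.21 FPKM), and H2-D1 was lowest in vehicle 4 (307 FPKM).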

How the results depend on the processing

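Depth and the clock cluster moved the members most, and the cause was not tested. With log2 reads as a covariate 0 members were lower, with log2 fold changes of -0.33 for H2-Ab1, -0.41 for H2-DMb1, 0.12 for H2-Aa and 0.16 for H2-DMa, and H2-Oa was at 0.11 and H2-Eb2 at 0.27. In mice of 7000000 to 12000000 reads, an alternative chosen after seeing the data, 1 member was higher (H2-Eb1, 0.55), H2-DMa was at 0.0888, H2-Oa at 0.0549, H2-Eb2 at 0.15 and Ciita at 0.37. In clock cluster 2 alone 1 member was lower and 2532 genes were called, with H2-Ab1 at -0.45, H2-Aa at 0.0709, H2-DMa at 0.17, Cd74 at 0.0070, H2-Oa at 0.23 and H2-Eb2 at 0.31. In cluster 1 alone 1883 genes were called, with H2-DMb1 at -0.91, Cd74 at -1.02 and H2-Eb1 at -0.16. A minimum log2 fold change of 1 left 765 of 4315 genes.

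Ciita on recovered reads scaled to their total was 0.70 higher (exact permutation p = 0.0451), and leaving out 1 mouse gave 0.19 to 0.30. Cd74 ran from -0.60 to -0.35 when 1 mouse was left out, H2-Ab1 from -0.79 to -0.60, H2-DMb1 from -0.94 to -0.70 and the genes called from 3503 to 4609. Within clusters the smallest exact permutation p is 0.0286, and the following ratios did not pass there, at 0.18 for H2-Aa over H2-Ab1, -0.67 for H2-Aa over H2-Eb1, 0.52 for H2-Eb1 over H2-DMa and 0.82 for H2-Eb1 over H2-DMb1 in cluster 1, and at -1.21 for H2-Ab1 over H2-Eb1, -0.69 for H2-Aa over H2-Eb1 and 1.58 for H2-Eb1 over H2-DMb1 in cluster 2.

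Deviations of same-numbered mice correlated at -0.35 to 0.43 and over 0.1 in 2 of 7 pairs, with 1 of 7 mice closest to its own number. These values show no pairing by number, but so few pairs cannot exclude one. Mice numbered 1 to 3 and 5 to 7 were in the same clock cluster in both groups, so the number overlaps in part with the cluster. With the replicate number as a block 4647 genes were called, H2-Ab1 was at -0.61 (limma adjusted p 0.0353), H2-DMb1 at -0.77 (limma adjusted p 0.0275), and no call of a member changed. For 28 other genes, 746 of 838 alternative values kept their direction and side of the threshold. Ciita rested on 1 to 26 reads per mouse.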
